A study of Mus musculus with 60 samples.

Results

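The expression of 8 genes of heart muscle (Myh6, Myl7, Myl4, Tnnt2, Tnni3, Actc1, Nppa and Sln) was examined in lung, liver and forestomach. The genes were taken by symbol, through the RefSeq accession that the array design gives for each probe, and 9 of 55681 probes matched, for 8 of the 20018 genes named in this way. Each gene had a single probe apart from Myh6, which had a second, dimmer probe. The label under which the genes were grouped places them in lung veins, but the RNA came from a random slice of the right lung lobe, and the arrays do not show which cells or vessels in the slice held it.

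Male Muta™Mouse animals, a transgenic strain made for mutation tests and about 10 weeks old, received benzo(ghi)perylene (BghiP, a polycyclic aromatic hydrocarbon) in olive oil by gavage on 28 days, and tissues were collected 72 h after the last dose. Vehicle mice (D0, mice 1 to 5) received olive oil, and the doses were 6.25 (D1, mice 6 to 10), 12.5 (D2, mice 11 to 15) and 25 mg/kg-bw/day (D3, mice 16 to 20). A mouse number stands for the same animal in all 3 tissues, which gave 60 arrays in 12 groups of 5. Every mouse carried the same transgene, and tissue RNA (Cy5) was hybridised against a reference RNA pooled from mouse cell lines (Cy3), so that a value is the log2 ratio of Cy5 to Cy3 within its own probe.

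Heart muscle contracts when calcium binds the troponin complex and frees actin for the myosin heads. The atria use light chains (Myl7 and Myl4) and a calcium pump regulator (Sln) that adult ventricles largely lack. In mice, heart muscle continuous with the left atrium sheathes the pulmonary veins and follows them into the lung. Myh6 encodes the alpha myosin heavy chain, Tnnt2 and Tnni3 the cardiac forms of troponin T and troponin I, Actc1 cardiac alpha actin, and Nppa the hormone atrial natriuretic peptide.

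The promoters of 4 of the genes are shown because Myh6 and Myl7 followed each other closely from lung to lung in log2 ratio, while Actc1 had the narrowest spread of this ratio (not of the Cy5 signal alone) and Nppa the lowest median correlation with the others. Of the 8 genes, 7 had an entry in the RefSeq promoter table of build GRCm38.p6, and Tnnt2 had 2. Each window runs from 250 bases before to 50 bases after an annotated start, on the strand of the gene. The windows are chr14:54966558-54966857 (minus strand, Myh6), chr11:5898733-5899032 (minus strand, Myl7), chr2:114052826-114053125 (minus strand, Actc1) and chr4:148000472-148000771 (plus strand, Nppa).
Myh6: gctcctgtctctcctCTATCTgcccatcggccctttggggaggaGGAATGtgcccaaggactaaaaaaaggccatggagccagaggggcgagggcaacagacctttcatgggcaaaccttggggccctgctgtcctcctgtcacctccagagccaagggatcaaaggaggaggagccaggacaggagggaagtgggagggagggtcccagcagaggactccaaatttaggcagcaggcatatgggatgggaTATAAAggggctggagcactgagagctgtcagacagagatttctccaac
Myl7: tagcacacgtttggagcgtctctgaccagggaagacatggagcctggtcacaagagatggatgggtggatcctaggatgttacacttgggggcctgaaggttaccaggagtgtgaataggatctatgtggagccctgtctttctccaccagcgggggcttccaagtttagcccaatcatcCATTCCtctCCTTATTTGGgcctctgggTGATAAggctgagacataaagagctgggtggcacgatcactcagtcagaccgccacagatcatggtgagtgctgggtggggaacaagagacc
Actc1: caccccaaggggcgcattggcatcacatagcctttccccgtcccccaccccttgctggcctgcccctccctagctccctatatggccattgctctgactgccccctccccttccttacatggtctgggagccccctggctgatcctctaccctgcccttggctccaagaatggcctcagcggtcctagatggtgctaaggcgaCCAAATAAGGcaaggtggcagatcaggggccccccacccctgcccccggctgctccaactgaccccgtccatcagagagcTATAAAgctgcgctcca
Nppa: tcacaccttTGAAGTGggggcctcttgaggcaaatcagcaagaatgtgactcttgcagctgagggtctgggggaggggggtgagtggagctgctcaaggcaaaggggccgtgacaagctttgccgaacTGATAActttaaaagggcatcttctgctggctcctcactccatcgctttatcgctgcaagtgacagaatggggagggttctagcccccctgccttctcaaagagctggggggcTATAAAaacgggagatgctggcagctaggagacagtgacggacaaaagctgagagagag
Capitals mark letters found on either strand. The search covered TATAAA (the letters of a TATA box), the CArG box (bound by serum response factor), the GATA factor form AGATAA (also with T as the first base and with G as the last), CATTCC (bound by TEAD factors) and TNAAGTG (bound by NKX2-5), and no match overlapped another. The CArG box was in the windows of Actc1 and Myl7 and in 1.63% of all 32851 promoters. TATAAA was in those of Myh6, Actc1 and Nppa (13.6% of all), where it began 1 and 33 bases after the annotated start and 9 bases before it, and a GATA form in those of Myh6, Myl7, Nppa and Tnnt2 (29.8% of all). CATTCC was in the windows of Myh6, Myl7 and Tnnt2 (14.7% of all), and TNAAGTG in that of Nppa alone (11.5% of all). These matches are letters in a window and were not tested for binding.

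The labelled tissues held their own marker genes. All 6 lung epithelial genes on a list of cell markers were higher in lung than in liver and forestomach (adjusted p of 0.05 or less and a 1.5-fold change, limma), among them Sftpc, which encodes surfactant protein C. All 6 liver cell genes were lower in lung than in liver. Some arrays also stood apart in genes of other tissues, from a source that was not tested. The lung of D0 mouse 1 had the highest ratio of the skeletal muscle genes Acta1 (6.90, next highest 0.78) and Tnni2 (6.65, next highest 0.55) and of the keratin gene Krt13 (5.53, next highest -1.07), and the lung of D3 mouse 20 had the highest ratio of the liver gene Alb (5.08, next highest 0.91). The forestomach of D0 mouse 2 had a Sftpc ratio of 7.57 (next highest 4.35).

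The thick filament gene Myh6 was high in 18 of 20 lungs and low in those of mice 13 and 4. It was well above background in 19 of 20 lungs, in 1 liver (of 20) and in 1 forestomach (of 20). Its lung log2 ratio ran from 0.17 (D2 mouse 13) through a median of 6.35 to 7.11 (D3 mouse 20). In liver it ran from -0.16 to 0.29 with a median of 0.04, and in forestomach from -0.29 to 3.29 with a median of 0.02. The lungs of mice 13 (0.17) and 4 (0.70) were near the liver values while the other 18 lay at 3.45 or higher, and the highest forestomach value was that of mouse 2, whose array also carried the lung gene Sftpc. Myh6 was higher in lung than in liver (log2 difference 5.51 ± 0.387, SE; adjusted p = 7.65e-19, limma) and than in forestomach (5.37 ± 0.387; adjusted p = 4.55e-18). Both differences are set against groups at background on 19 of 20 arrays, so no fold is given. The forestomach difference was 6.15 with processed signals and 4.45 with the vehicle mice alone, and the liver difference was 6.16 with Cy5 alone. The second Myh6 probe was well above background in 11 lungs, 11 livers and 0 forestomachs, and its difference from liver was 0.39 ± 0.151 (adjusted p = 0.0158), under the 1.5-fold limit. This probe lost significance against liver when slide was fitted as a random block (adjusted p = 0.106) and when mouse 6 was left out (0.0526), and over all alternatives run its adjusted p lay between 0.00642 and 0.964. Against forestomach its difference was 0.94 ± 0.151 (adjusted p = 2.33e-07). No fold is given, because the forestomach group had only a background level and only 11 of 20 lungs were well above it.

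The atrial light chains differed from each other outside the lung. Myl4, the atrial essential light chain, ran in lung from 0.18 through 3.39 to 5.38, in liver from -2.13 through -1.60 to -1.46 and in forestomach from -1.93 through -1.32 to 1.74 (lowest, median, highest). Every lung lay above every liver, and 15 of 20 lungs lay above the highest forestomach, which was again that of mouse 2. The difference was 25.4-fold from liver (4.67 ± 0.328; adjusted p = 7.69e-19) and 17.7-fold from forestomach (4.15 ± 0.328; adjusted p = 1.48e-16). Myl7, the atrial regulatory light chain, ran from 0.06 through 3.94 to 5.81 in lung, from -0.08 through 0.17 to 0.42 in liver and from 0.90 through 3.66 to 4.99 in forestomach. It was higher in lung than in liver, where 3 of 20 arrays were well above background (3.29 ± 0.416; adjusted p = 4.42e-10; 3.95 with processed signals and 2.68 with Cy5 alone), whereas the lung and forestomach ranges overlapped nearly throughout. Its difference from forestomach, 0.34 ± 0.416 (adjusted p = 0.471), was within the error and turned negative in 4 alternatives, with the processed signals giving the lowest value, -0.47.

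Thin filament genes were also higher in lung than in liver. Tnnt2 ran in lung from -0.70 through 1.75 to 3.60, in liver from -2.30 through -2.03 to -1.32 and in forestomach from -1.39 through 0.02 to 0.81. All lungs exceeded all livers, and 13 of 20 exceeded all forestomachs. The differences were 3.34 ± 0.259 from liver (10.1-fold; adjusted p = 3.56e-17) and 1.56 ± 0.259 from forestomach (2.95-fold; adjusted p = 4.54e-07). With the vehicle mice alone the second of these was 1.03 (adjusted p = 0.111), and adjusted p over the alternatives ran from 2.34e-08 to 0.111. Tnni3 ran in lung from -0.46 through 2.23 to 4.25, in liver from -0.82 through -0.53 to -0.03 and in forestomach from -0.91 through 1.01 to 5.35. It was higher in lung than in liver, where 1 of 20 arrays was well above background (2.53 ± 0.451; adjusted p = 1.34e-06; 5.01 with processed signals and 1.90 with Cy5 alone), and its highest value over all 60 arrays, 5.35, was in a forestomach (mouse 9). The lung and forestomach means of Tnni3 differed by 0.56 ± 0.451 (adjusted p = 0.261). Actc1 ran in lung from 1.87 through 2.56 to 3.42, in liver from -0.70 through -0.47 to -0.26 and in forestomach from -0.90 through 0.24 to 1.44. It was the only member whose lungs all lay above both other tissues, by 3.07 ± 0.143 (8.42-fold; adjusted p = 2.13e-26) and 2.39 ± 0.143 (5.24-fold; adjusted p = 3.16e-21). With Cy5 alone these differences were 4.43 ± 0.267 and 3.78 ± 0.267, and the Cy3 signal of this probe moved with Cy5 over the lungs.

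Nppa and Sln act outside the filaments. Sln, which encodes sarcolipin, an inhibitor of the calcium pump of the sarcoplasmic reticulum, ran in lung from -0.05 (mouse 13) through 5.05 to 7.10 (mouse 1). In liver it ran from -0.16 through 0.04 to 0.21 and was not well above background on any array, and in forestomach it ran from 0.30 through 1.43 to 3.87. The lung signal was at least 18.2-fold higher than in liver (fitted difference 4.48 ± 0.462; adjusted p = 8.99e-13) and 7.33-fold higher than in forestomach (2.87 ± 0.462; adjusted p = 2.27e-07). With processed signals these differences were 6.10 and 1.55. The bound of 18.2-fold uses the mean Cy5 signal in lung. Each liver array enters it with the higher of the Sln signal and the dimmest signal well above background. Each lung enters at its measured signal, with 18 of 20 lungs well above background. With no dye swap the bound is open to dye bias, and it depends on how the Cy5 signals were normalised. Nppa was well above background in 10 lungs, 4 forestomachs and 0 livers. Its lung values were 1.78 in D0 mouse 1, 2.84 in D1 mouse 6, 1.12 in D1 mouse 8, 2.54 in D2 mouse 14 and 3.96 in D3 mouse 20, and the other 15 lungs lay between -0.22 and 0.07. Against liver Nppa was higher by 0.75 ± 0.237 (adjusted p = 0.00351), with no fold given since only 10 of 20 lungs were well above background. Against forestomach it differed by 0.41 ± 0.237 (adjusted p = 0.117). The liver difference rested on few lungs. It was 0.56, under the 1.5-fold limit, without mouse 20 and 1.88 with processed signals, and with slide as a random block its adjusted p was 0.082 (range over the alternatives 1.61e-05 to 0.082).

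**Figure D1:**
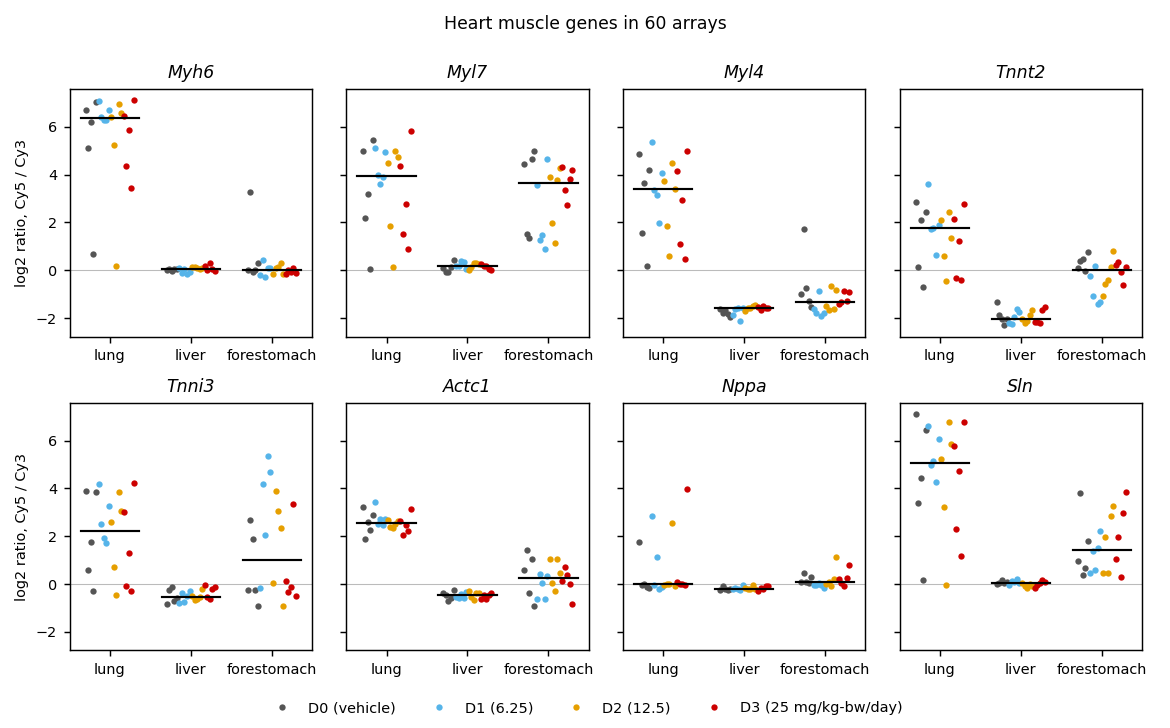
Log2 ratio of tissue to reference signal (vertical axis) of the 8 heart muscle genes in lung, liver and forestomach, with a point per array coloured by dose and a line at the median of 20 arrays. Lung values of Myh6 ran from 0.17 to 7.11 while all livers lay at 0.29 or lower, and Myl7 and Tnni3 reached 4.99 and 5.35 in forestomach.

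All 8 members passed the filter on low values, Myh6 and Nppa only through lung, so that the counts over members that passed are a description. In all, 8 of 8 were called higher in lung than in liver, where 26.2% of the 33255 probes tested were called higher, 19.4% lower and 45.6% in either direction. Against forestomach 5 of 8 were called higher, where 18.8% of probes were called higher, 15.7% lower and 34.6% in either direction. Among the 6 members that also passed through another tissue, 6 were called against liver and 4 against forestomach. Since 20.7% of all probes had every lung above every liver, and 9.29% every lung above every forestomach, the 3 members (Myl4, Tnnt2 and Actc1) and 1 member (Actc1) without overlap are read against these shares. The median fitted difference over the members was 3.31 from liver and 1.97 from forestomach, and over all probes 0.06 and 0.01. It has no exact size, since 5 members in liver and 1 in forestomach were well above background on 3 arrays or fewer. Both comparisons use the same lungs. In bulk tissue, fewer heart muscle cells and less of these transcripts per cell cannot be told apart. Liver arrays were on slides of their own, so that slide and liver cannot be told apart, whereas lung and forestomach shared 5 slides. Within these slides, the lung minus forestomach difference of Myh6 ran from 4.21 to 6.83 and that of Myl4 from 2.74 to 5.91. Tnni3 differed by 3.48 and 3.02 on slides 1 and 5 and by -0.58, -1.46 and -1.68 on slides 2, 3 and 4.

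Between lungs, 7 of the members were among the most variable transcripts, and Actc1 was not. The SD within dose groups was 2.31 for Sln, the second largest of 31022 probes tested in lung, and 2.06 for Myh6 (rank 10), against a median of 0.198 over all probes. Myl7 (1.87, rank 13), Tnni3 (1.70, rank 21) and Myl4 (1.70, rank 22) followed, then Tnnt2 (1.32, rank 63) and Nppa (1.31, rank 65). The second Myh6 probe had an SD of 0.833 (rank 374). Actc1 had an SD of 0.394 (rank 3747) in log2 ratio, although its log2 Cy5 signal spanned 4.40, against 4.35 for Tnnt2 and 3.81 for Nppa. All 8 members were well above background in 10 lungs and 7 members in another 7, whereas the lungs of mice 19, 4 and 13 had 6, 4 and 3. The 2 lowest lungs were those of mice 4 and 13 for Myh6, Myl7, Tnnt2 and Sln, and the highest was that of mouse 20, 6 or 1 for every member.

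**Figure D2:**
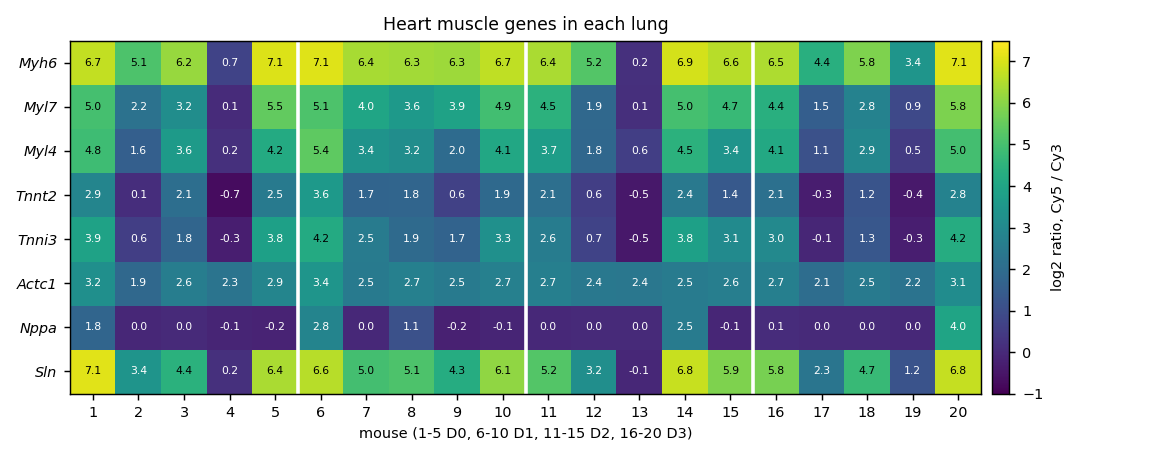
Log2 ratio of Cy5 to Cy3 of each member (rows) in the lung of each mouse (columns, in order of dose group), with the value printed and coloured. The columns of mice 4 and 13 hold values of 0.70 or lower in every row but Actc1, and Nppa is above 1 only in mice 1, 6, 8, 14 and 20. Colours compare lungs within a row, not genes.

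The members varied together over the 20 lungs. Of the 28 pairs, 27 had a positive correlation at an adjusted p of 0.05 or less (permutation test, two-sided, adjusted over the pairs), with a median r of 0.841. By rank 23 of the 28 passed, and the other 5 were those of Nppa with Myh6, Myl7, Tnni3, Actc1 and Sln (adjusted p of rho between 0.0777 and 0.217). Since the genes had been grouped with earlier results of these arrays known, these p-values are no independent evidence. Myl4 and Tnnt2 had r = 0.988 and rho = 0.985 (permutation p = 1e-05 for each, the smallest the resamples can give; adjusted p 1.56e-05 and 1.33e-05), and Myl7 and Sln r = 0.975 and rho = 0.958 (permutation p = 1e-05 for each; same adjusted values). The lowest was that of Myh6 and Nppa (r = 0.369, permutation p = 0.0753; rho = 0.343, permutation p = 0.141). Nppa had a median r of 0.595 with the other members, Actc1 0.742, and the remaining 6 between 0.831 and 0.947. Without the lungs of mice 4 and 13, the farthest from the median, all 28 pairs passed and the median r was 0.893. With dose and slide means removed, 25 pairs passed and the median r was 0.824, and those lost were Myh6 with Actc1 (r = 0.336), Myh6 with Nppa (0.282) and Myl7 with Actc1 (0.446). The permutation did not count the means removed, so its p-values run too small here and the count of 25 may be too high. Leaving out mice 1 and 20, whose lungs carried skeletal muscle and liver genes, gave a median r of 0.838.

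Slides differed in these genes as well. The lungs of slides 1 and 5 had mean Sln ratios of 6.17 (5.24 to 7.10) and 6.28 (5.85 to 6.76). Those of slides 2, 3 and 4 had means of 3.56 (-0.05 to 5.13), 3.11 (0.17 to 6.79) and 3.47 (2.29 to 4.97), so that the ranges of slides 1, 3 and 5 overlapped. On slides 1 and 5 the mean share of probes well above background on lung arrays was 52.6% and 58.4%, against 39.0%, 49.4% and 45.8% on slides 2, 3 and 4. Over the 20 lungs the mean of the members correlated with this share (r = 0.517, permutation p = 0.0195; rho = 0.595, permutation p = 0.00644), without the 2 farthest arrays r was 0.491, and with dose and slide means removed it was 0.110 (permutation p = 0.647). Each slide held a lung of every dose in a column of its own. Whether slide or animal set these levels was not tested.

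Correlations among the members were mostly weak in forestomach. The 6 members tested there gave 15 pairs with a median r of 0.101, and 2 pairs passed, those of Tnni3 with Tnnt2 and with Myl7, both negative. Forestomach Tnni3 fell into separate sets, 10 arrays between -0.91 and 0.12 and 10 between 1.89 and 5.35, as was seen after its values were known, and it was well above background on 11 arrays. A pooled r over such sets describes no relation within them, so none is read from these 2 pairs. With dose and slide means removed, Myl4 with Sln passed at r = 0.809 (adjusted p 0.00075, too small because the permutation did not count the means removed). Without mouse 2 that r was 0.510, and before the means were removed it was 0.319 (permutation p = 0.174). Whether the correlations differ between lung and forestomach was not tested.

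**Figure D3:**
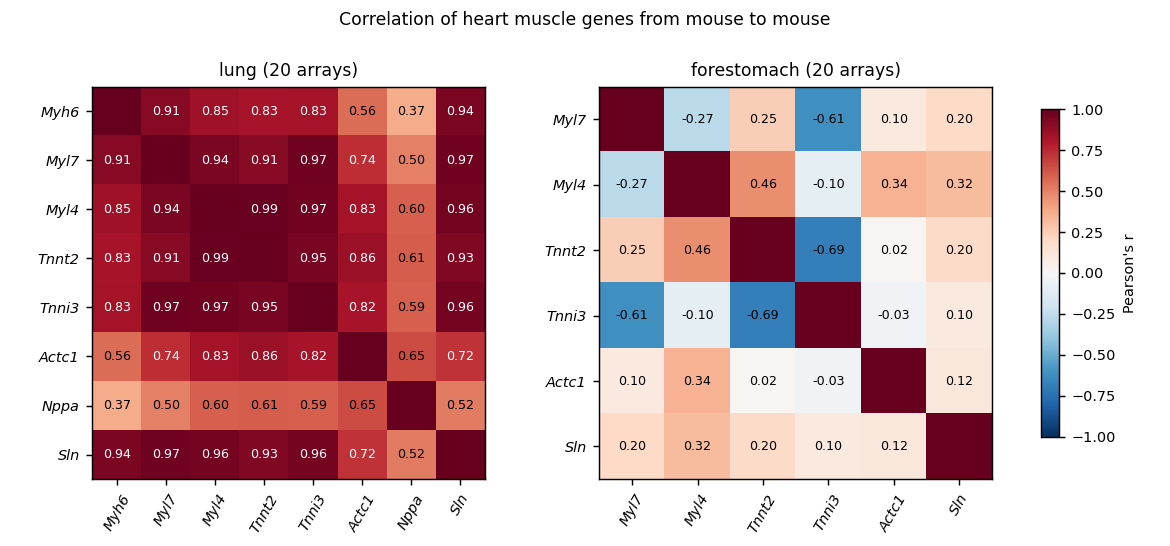
Pearson correlation of the members' log2 ratios over 20 lungs (8 members, left) and over 20 forestomachs (the 6 members tested there, right), with r printed and coloured from -1 to 1. In lung r runs from 0.37 to 0.99, and in forestomach from -0.69 to 0.46.

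Among other genes, those most like the members in lung were also genes of striated muscle. The measure was Pearson's r over the 20 lungs with the mean of the members, given as a description, and 0.11% of 31013 other probes exceeded 0.8. The highest were Mb (myoglobin, r = 0.973), Tcap (a titin cap protein of the sarcomere, 0.969), Fabp3 (the heart form of fatty acid binding protein, 0.943), Ckmt2 (mitochondrial creatine kinase of striated muscle, 0.942), Csrp3 (muscle LIM protein, 0.933), Tnnc1 (troponin C of heart and slow muscle, 0.929), Myoz2 (0.925), Myl3 (0.914), Atp2a2 (the calcium pump that sarcolipin inhibits, 0.906) and Mybphl (0.9). Mb ran from -0.39 to 4.99 and Tcap from 1.24 to 5.47 over the lungs. The 15 probes closest to the members were completed by a second probe of Fabp3 (0.940), a probe of Tpm1 (0.893), Fndc5 (0.891), Hrc (0.889) and Mapk10 (0.873). Probes of a gene could disagree, since the brightest Tpm1 probe, a gene also used in smooth muscle, had r = -0.340.

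Lists of other heart genes behaved unevenly. Of 18 tested sarcomere genes beyond the members, 13 were higher in lung than in liver and 1 lower (Csrp3, -3.22), with a median of 1.36, and 10 were higher and 2 lower than in forestomach. Their r with the members ran from -0.340 to 0.969 with 13 above 0.5, which 2.61% of all probes exceeded. All 11 energy genes of heart muscle, such as Ckm and Cox8b, were higher than in liver (median 1.92), and all 11 had r above 0.5. The lung of mouse 1, which carried skeletal muscle genes, was the highest for 8 of these 11 and for 11 of the 18 sarcomere genes, many of which skeletal muscle makes too. Without mouse 1, a lung left out here after its values were seen, all 11 energy genes and 13 of the 18 sarcomere genes still had r above 0.5 (median 0.868 and 0.763). Against forestomach 5 of the 11 were higher and 3 lower. Of 16 calcium handling and excitation genes, 8 were higher and 1 lower than in liver, and r was above 0.5 for 8, led by Atp2a2 (0.906), Hrc (0.889), Kcnj5 (a potassium channel subunit of the atria, 0.872) and Casq2 (calsequestrin, 0.851), and was lowest for Gja5 (-0.0173) and Gja1 (-0.00539). Of the 12 heart transcription factors that passed the filter in lung, Tbx20 (r = 0.852) and Mef2c (0.518) exceeded 0.5. Myocd (0.396) and Hey2 (0.288) followed, and Nkx2-5 (0.0997) and Tbx5 (0.123) had values near 0. The lowest values were those of Smyd1 (-0.315) and Gata6 (-0.05). Tbx20 was well above background in 6 lungs, and Smyd1 in 20.

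Atrial and ventricular lists did not separate as a whole. Of 6 further genes of the atria, Corin, the protease that cleaves the Nppa precursor, had r = 0.741 and the other 5 had r between -0.131 and 0.272. Among ventricular genes, Myl3 (the ventricular essential light chain, also made in slow muscle) followed the members, from 0.17 to 5.44 in lung. Myl2, the ventricular regulatory light chain, was well above background in 6 lungs and reached 0.98 in mouse 20, with r = 0.399. Myh7, the beta myosin heavy chain, was well above background in all 20 lungs at 4.85 to 5.85 and had r = 0.0234, so that its level in mice 4 and 13 was like that in the other lungs. Nppb, the ventricular natriuretic peptide, had r = -0.368 and was well above background in 5 lungs.

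Markers of other cells were examined in the same way, and the median r of a list was highest for liver cell (0.527) and fat cell genes (0.491). Only 3 of the 6 liver cell genes passed the filter in lung, each was highest in mouse 20, and without that lung the medians were 0.434 and 0.413. Smooth muscle genes (8 tested) were all higher than in liver and all lower than in forestomach, with r between 0.150 and 0.485 (Smtn highest). Lung epithelial genes had r between -0.280 (Sftpa1) and 0.410 (Foxj1), mesothelial genes between -0.372 (Msln) and 0.111, and red cell genes between 0.126 and 0.331. Fat cell genes had r between 0.417 and 0.540 (Fabp4), liver cell genes between 0.157 and 0.531 (Tat), keratinocyte genes between -0.375 (Trp63) and 0.369 (Krt5), and thymus genes between -0.224 (Tcf7) and 0.528 (Cd8b1). Of 11 fast skeletal muscle genes, only Myl1, a light chain, had r above 0.5 (0.737), and all 16 on the list were highest in mouse 1. Without mouse 1 the median r of the fast skeletal muscle list went from 0.249 to 0.033, with Myl1 (0.897) and Atp2a1 (0.592) above 0.5, and that of the keratinocyte list from 0.154 to -0.310. Among slow skeletal muscle genes Tnnt1 had r = 0.417. The part of these cells in the members' levels was not tested.

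Nppa lay near genes of several tissues. With the means of the further sarcomere, calcium handling and energy lists of heart muscle, its r was 0.678, 0.671 and 0.645. With the mean of the liver cell list its r was 0.635, and with that of the further atrial genes 0.169. Its r was highest with Cyp4a12b (0.855) and Tat (0.839), enzymes found in liver, followed by Ank1 (0.828), Cyp4a12a (0.824), Lrrc10 (a heart protein, 0.810) and Ankrd1 (a stress protein of heart muscle, 0.810). Since Nppa and Alb were both highest in the lung of mouse 20, r with Alb was 0.652 with that lung and 0.053 without it, while r with Tat was 0.839 and 0.779, and r with Cyp4a12b 0.855 and 0.727. Genes made in fat lay near too, with r = 0.771 for Pck1 (an enzyme of glucose synthesis made in liver and fat, 0.600 without mouse 20), 0.766 for Car3 and 0.723 for Adipoq (adiponectin, 0.657 without mouse 20), and r = 0.691 for the mean of the fat cell list. By rank these were lower, with rho = 0.386 for Cyp4a12b, 0.641 for Tat, 0.496 for Pck1 and 0.480 for Adipoq, and Nppa was above 1 in 5 lungs. The fat cell mean was highest in the lungs of mice 8, 14 and 20, which were among the 5 of high Nppa. The part of fat and liver cells in the Nppa level was not tested. The median r of Nppa with the other members was 0.540 without mouse 20 and 0.487 without mice 1 and 20.

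The signals of both channels were examined because the reference RNA was the same on every array. For Actc1 the reference signal was not constant. Over the 20 lungs its log2 Cy5 ran from 10.1 to 14.5 and its log2 Cy3 from 8.23 to 11.3, with r = 0.993 and a slope of 0.676, whereas Cy3 lay between 7.44 and 7.83 in liver. Its log2 ratio spanned 1.55 where its Cy5 signal spanned 4.40. Myh6 had a Cy3 span of 3.42 (5.62 to 9.04) with r = 0.839 and a slope of 0.299, Sln had Cy3 from 5.07 to 7.60 (r = 0.431), and Myl4, Tnnt2, Tnni3 and Nppa had Cy3 spans of 0.74 or less. Of 343 lung probes whose Cy5 spanned more than 3, 79 (23%) had a Cy3 span above 2 and r above 0.9, Actc1 among them. With Cy5 alone, quantile normalised between arrays, all 28 pairs of members passed and the median r was 0.934. Why the reference signal moved was not tested.

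**Figure D4:**
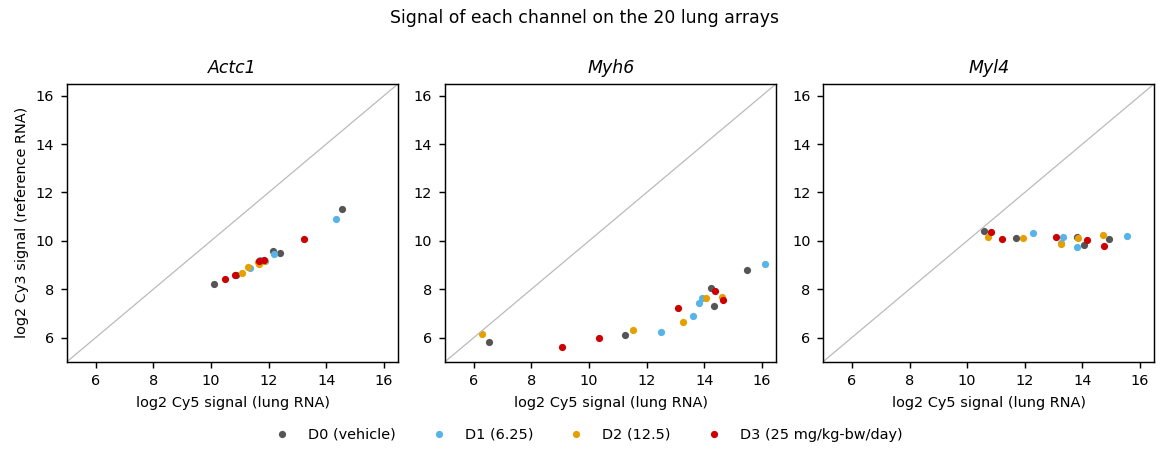
Log2 Cy3 signal (reference RNA) against log2 Cy5 signal (lung RNA) of Actc1, Myh6 and Myl4 on the 20 lung arrays, coloured by dose, with a line of equality. Cy3 of Actc1 climbs from 8.23 to 11.3 with Cy5, that of Myh6 from 5.62 to 9.04, and that of Myl4 stays within 0.67.

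Forestomach Myl7 and Tnni3 followed other genes, which were looked up after their values had been seen. Myl7 was well above background on all 20 forestomach arrays. Its values there were closest to Kcnk7 (r = 0.987), Aspg (0.984), Fxyd4 (0.982) and Il1r2 (0.982), with Dsc1 (desmocollin 1 of stratified epithelium, 0.978) and Klk11 (a kallikrein protease, 0.977) near them. Not all genes of that epithelium lay near, with r = 0.587 for Krt13, 0.176 for Krt5 and -0.109 for Lor (0.373, -0.421 and -0.492 with dose and slide means removed). The mean of the keratinocyte list had r = 0.654 with Myl7 and that of the smooth muscle list 0.655. The smooth muscle gene Myh11 had r = 0.742 (0.536 with these means removed). Of 25069 other probes, 7.93% had r above 0.8 with Myl7. With these means removed, r was 0.972 for Kcnk7, 0.964 for Dsc1 and 0.964 for Klk11. Tnni3 was well above background on 11 forestomach arrays and was at 0.12 or lower on 10. It was closest to Glod5 (0.985), Mia (0.984), Akr1c12 (0.984), Tmprss9 (0.983) and Kcne2 (a potassium channel subunit of acid-secreting cells, 0.982), Gata4 had r = 0.973, and 5.33% of probes had r above 0.8 with it. Genes of the glandular stomach did likewise, with r = 0.972 for Gkn1 (gastrokine 1), 0.970 for Foxa2, 0.902 for the mucin Muc5ac and 0.860 for Atp4b (the proton pump of acid-secreting cells), and 0.954, 0.959, 0.868 and 0.810 with dose and slide means removed. The forestomach borders on the glandular stomach, and the part of its cells in the Tnni3 level was not tested. Each of these r is taken across both sets of Tnni3 values and describes no relation within either. Myh7 (r = 0.927) and Fabp3 (0.947) were aligned with Tnni3 there too, while in lung r of Tnni3 with Gkn1 was 0.234 and with Kcnk7 0.218.

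**Figure D5:**
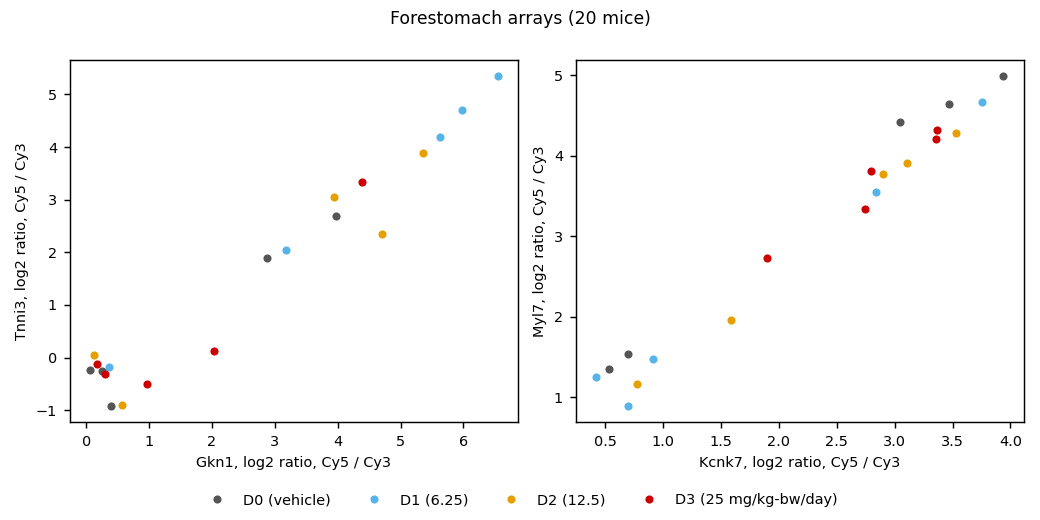
Log2 ratio of Tnni3 against Gkn1 (left) and of Myl7 against Kcnk7 (right) on the 20 forestomach arrays, coloured by dose. Tnni3 lies at 0.12 or lower on 10 arrays and between 1.89 and 5.35 on the other 10, and Myl7 climbs with Kcnk7 over all 20 (r = 0.987).

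Forestomach of D0 mouse 2 departed from this pattern. It had the highest Myh6 (3.29), Myl4 (1.74) and Actc1 (1.44) of the 20 forestomachs and a Sln of 3.80, second to mouse 20 (3.87), together with the highest Sftpc (7.57) and Scgb1a1 (6.26) there. Without it, the other 19 forestomachs had Myh6 between -0.29 and 0.42, and the median r of the 15 pairs was -0.081. The lung minus forestomach difference of Myh6 was 5.53 without mouse 2 and 5.37 with it.

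The comparison of doses with vehicle asked whether exposure altered these genes. No member was called at D1, D2 or D3 or on the slope over dose (0 of 9 probes), where limma called 0% of 31022 probes and 688, 1055 and 1492 probes (2.22%, 3.4% and 4.81%) had an unadjusted p under 0.05 at D1, D2 and D3. None of the 9 had an unadjusted p under 0.05 in these 3 comparisons, and residual shuffling called 0 of them as well. A fit that held slide constant called 21 probes (0.0677%) at D3 and 0 of the members. In D0 the 5 lungs had Myh6 ratios of 6.70, 5.12, 6.19, 0.70 and 7.05, and in D3 6.45, 4.37, 5.85, 3.45 and 7.11. In D1 they were 7.08, 6.40, 6.30, 6.27 and 6.70, and in D2 6.42, 5.22, 0.17, 6.94 and 6.59. All 4 groups overlapped, and the lowest D1 lung lay at 6.27. For Sln the D0 lungs had 7.10, 3.40, 4.43, 0.17 and 6.43, and the D3 lungs 5.76, 2.29, 4.72, 1.19 and 6.76.

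Changes at D3 were small beside their errors, from -0.32 ± 0.984 (Tnni3) to 0.52 ± 0.755 (Nppa), with an adjusted p of 0.998 for each. Myh6 changed by 0.29 ± 1.19 and Sln by -0.16 ± 1.33. Actc1 changed by -0.06 ± 0.232 as a ratio and by -0.39 ± 0.685 with Cy5 alone. At D1 the changes of Myh6 and Myl7 were 1.40 ± 1.19 and 1.14 ± 1.08 (adjusted p of 1 for each). Errors of this size mean that even a several-fold change of Myh6 or Sln could go uncalled with 5 mice per group. How large a change would be called was not tested. Within slides, the D3 minus D0 difference of Myh6 ran from -0.75 to 2.75. In liver the 4 member probes that passed the filter had an adjusted p of 0.402 or more at D3, with Myl4 at 0.21 ± 0.0986 (unadjusted p = 0.0451), and in forestomach the 6 tested had an adjusted p of 1, with changes from -0.59 ± 0.442 (Myl4) to 0.51 ± 0.730 (Sln). Limma called 0% of the 25893 probes tested in liver and of the 25070 in forestomach, with 3145 and 377 probes at an unadjusted p under 0.05, and with processed signals 5 liver probes were called.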

How the data were processed

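Total RNA of lung, liver and forestomach from 20 mice was hybridised to 60 two-colour arrays. The deposited scanner files hold intensity values of both channels (Feature Extraction 10.7.3.1, design build mm9), and the authors' deposited table holds log2 ratios after LOWESS of median signals without background subtraction. From the median signals, log2 ratios were rebuilt with within-array loess in limma 3.58.1 (R 4.3.3), leaving out 3671 control spots and 0.46% of spot values that were outliers. Probes whose Cy5 signal was well above background on 5 or more of the 20 arrays of a tissue were fitted with lmFit and eBayes, with Benjamini-Hochberg adjustment over all of them, and a call needed a 1.5-fold change with an adjusted p up to 0.05 (no fold limit for the slope). Gene names came from RefSeq accessions through GRCm38.p6, for names only, and 47.4% of probes had a symbol. Genes named beyond the members were the 15 closest by r with their mean and those of the lists. The members and lists were chosen with earlier results of these data known, and the script was tested on simulated data. Correlations over arrays had two-sided permutation tests with 100000 resamples (scipy 1.17.1). Mouse numbers pair the tissues because the labels give each number to 1 animal (median r of deviations 0.0539 for lung and liver, 0.209 for lung and forestomach). Alternatives covered processed signals, background correction, scaling, Cy5 alone, filters, slide or mouse as a block and leaving out each mouse. The number of arrays limits the precision. Each mouse is a replicate, and the p-values measure the spread between mice.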

Additional observations from a re-analysis of the deposited data

Results flagged for a closer look

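In each set of 5 arrays of a tissue and dose, the gap between the most extreme value and its nearest neighbour was compared with the range of the set (Dixon's ratio above 0.71). Of 108 sets, 14 passed, 5 of them in lung, 3 in liver and 6 in forestomach, and since chance passes about 1 in 20 sets, 5.4 would be expected. All values are log2 ratios.

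In lung, Myh6 was 0.17 in D2 mouse 13 against 5.22 to 6.94 in the rest of its group. Actc1 was 3.42 in D1 mouse 6 against 2.46 to 2.72. Nppa stood apart in 3 lungs, at 1.78 in D0 mouse 1 (others -0.15 to 0.01), 2.54 in D2 mouse 14 (others -0.08 to 0.00) and 3.96 in D3 mouse 20 (others -0.04 to 0.07).

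In forestomach, D0 mouse 2 stood apart for Myh6 (3.29, others -0.06 to 0.30), Myl4 (1.74, others -1.53 to -0.72) and the second Myh6 probe (0.18, not well above background on any array of the group). The value of Myl4 in D1 mouse 8 was -0.87 (others -1.93 to -1.64), that of Nppa in D2 mouse 15 was 1.13 (others -0.08 to 0.21), and that of Tnni3 in D3 mouse 19 was 3.34 (others -0.51 to 0.12).

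In liver, the second Myh6 probe was 0.89 in D0 mouse 3 (others 0.49 to 0.57) and 0.75 in D2 mouse 13 (others 0.42 to 0.48). Nppa was -0.04 in D2 mouse 14 (others -0.20 to -0.17), with no array of that group well above background.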

How the results depend on the processing

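Of 1393 values of 47 results under alternatives, 1317 were scored the same as first fitted and 76 were not, and the cause was not tested. A difference or change of a single probe was scored the same if it kept its direction and its side of the adjusted p threshold. A count was scored the same if it was within 1.5-fold of the first count or both were nil. A median r was scored the same if it kept its sign and lay within the spread found by leaving out each mouse. With processed signals, the lung minus liver difference of the second Myh6 probe was -0.018, that of Myl7 from forestomach -0.47, and the D3 changes of Myl7, Actc1 and Sln were 0.51, 0.015 and 0.75. With scaled arrays Myl7 differed from forestomach by -0.23, with the vehicle mice alone by -0.21 and with Cy5 alone by -0.069, where Tnni3 differed by -0.030 and D3 Myh6 changed by -0.17. At an adjusted p under the threshold, 3 member calls were lost to the 1.5-fold limit alone, those of Nppa against liver (0.52, adjusted p = 0.00625) and the second Myh6 probe against forestomach (0.54, adjusted p = 2.28e-07, range over alternatives 2.42e-09 to 1.76e-06) with Cy5 alone, and that of Nppa without mouse 20 (0.56, adjusted p = 0.00616, range 1.61e-05 to 0.082). Counts of probes called became 17813 for lung against forestomach, 1 for lung D3 and 5 for liver D3 with processed signals, 3 for liver D3 with scaled arrays and 2 for the lung slope with Cy5 alone. With slide as a block, 21 were called for lung D3, 95 for the lung slope and 24 for liver D3. Members called against liver and forestomach numbered 4 and 3 of the 4 tested with a filter on all arrays, and 5 and 3 of the 5 tested with the vehicle mice alone, the others being untested. The median r over lungs was 0.893 without the 2 farthest arrays, 0.739 with processed signals and 0.934 with Cy5 alone. Over forestomachs it was -0.048 without the 2 farthest arrays, and 1 pair passed with processed signals and 1 with Cy5 alone.

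Leaving out each mouse in turn gave a forestomach median r of -0.081 to 0.162 with 0 to 3 pairs, a lung median r of 0.834 to 0.864 with 26 to 27 pairs, 7 to 8 members called against liver (7 without mouse 20) and 0 to 33 probes for liver D3 (33 without mouse 1). The D3 changes ranged from -0.82 to 0.79 (Myh6), -0.51 to 0.094 (Myh6 probe 2), -0.88 to 0.47 (Myl7), -0.84 to 0.40 (Myl4), -0.80 to 0.086 (Tnnt2), -0.97 to 0.16 (Tnni3), -0.24 to 0.11 (Actc1), -0.27 to 0.89 (Nppa) and -1.20 to 0.58 (Sln). The second Myh6 probe differed from liver by 0.31 to 0.46. With the mouse as a replicate block, 8 members were called against liver and 5 against forestomach (15182 and 11499 probes), Myh6 differed from liver by 5.51 (adjusted p = 7.55e-16, range over alternatives 2.19e-22 to 0.00017), and no other member's call changed.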
